A study of Mus musculus with 12 samples.

Results

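Pairs of expression arrays from a single round of *Kdm6a* RNAi were compared across PGK12.1, a female mouse embryonic stem (ES) cell line, and WD44, a male one. The 4 pairs were PGK12.1 experiments 3 and 4 and WD44 experiments 1 and 2, chosen by their sample titles because dose and time were the same in all: 8 of the 12 arrays of the series, and 4 of its 6 experiments. In each experiment 1 culture received negative control siRNAs and 1 culture a pool of 3 siRNAs against *Kdm6a*, 100 pmol for 48 h, and each gave 1 array. PGK12.1 came from blastocysts of a 129 female and a (129 X PGK)F1 male, and WD44 from BL6 blastocysts, so female against male and 129/PGK against BL6 background cannot be told apart here. The labels give passages 14 to 18 for both. Both lines were grown with leukemia inhibitory factor (LIF) on mouse embryonic fibroblasts, from which they were separated on gelatin before RNAi. All cells compared were undifferentiated, neither line carried a transgene named in the labels, and each sex stands here on 1 line. The other 4 arrays, PGK12.1 experiments 1 and 2, had a second round of siRNAs (double RNAi). They took no part in the choice of genes by size of change. They served for looking up genes and for an alternative fit on all 12 arrays. Whether experiments of a line were separate thawings or passages is not stated in the sources used here, and the spread they show can be of technical origin.

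KDM6A (UTX) is an X-linked enzyme that removes methyl groups from lysine 27 of histone H3, a mark that Polycomb repressive complex 2 writes at silent developmental genes. It is also a subunit of the KMT2C/D complexes, which methylate lysine 4 of histone H3 at enhancers. The gene escapes X inactivation, and male cells carry a Y-linked relative, *Uty*, whose product has little demethylase activity. The comparison asks whether loss of *Kdm6a* RNA was followed by the same changes in the female and in the male line.

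The change of a gene in an experiment is the log2 value on the *Kdm6a* RNAi array minus the log2 value on its control array. Level means the linear value divided by the mean of its array. Of 19951 named genes, 15340 had a mean level of at least 0.1 and were tested, and 4611 lay below. A gene was said to have moved in a line when both of its experiments changed by at least 0.3 in the same direction, and to have been still when both lay within 0.15 of 0. By this rule of size genes were alike (moved the same way in both lines), PGK12.1 only (moved in PGK12.1 and still in WD44), WD44 only (the reverse) or opposite. In PGK12.1 198 genes moved (1.29% of those tested, 0.606% up and 0.684% down), and in WD44 104 (0.678%, 0.319% up and 0.359% down). Of these, 7 were alike (0.0456%), 1 higher (0.00652%) and 6 lower (0.0391%). A further 80 were PGK12.1 only, 43 were WD44 only, and none was opposite. Most genes that moved in one line thus did not move in the other. *Kdm6a* left aside, 5 of the 104 genes down in PGK12.1 also moved down in WD44, where 0.359% of all genes did. Of the 93 genes up in PGK12.1, 1 moved up in WD44, where 0.319% of all genes did. Still genes were 60.4% of those tested in PGK12.1 and 58.5% in WD44. At the edge of the rule the smaller of the PGK12.1 changes was 0.30 just inside and 0.29 just outside, and 19 genes lay at 0.3 itself. In WD44 these values were 0.30 and 0.295, with 23 genes at 0.3.

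**Figure D1:**
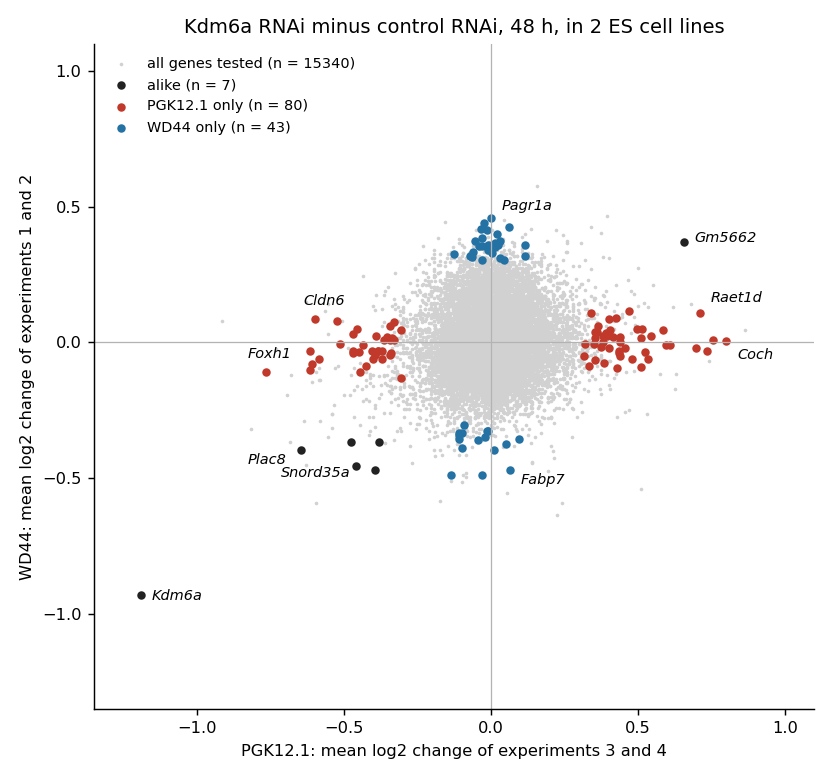
Mean log2 change after *Kdm6a* RNAi in PGK12.1 (x axis, experiments 3 and 4) against WD44 (y axis, experiments 1 and 2), with small grey points for the 15340 genes tested and large points for the 7 alike (black), 80 PGK12.1 only (red) and 43 WD44 only (blue) genes. Red and blue points lie along an axis, as the rule sets, and *Kdm6a* stands alone at the lower left.

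*Kdm6a* RNA was lower in every experiment. *Kdm6a* had log2 values on the control and *Kdm6a* RNAi arrays of 10.03 and 8.61 in PGK12.1 experiment 3, 11.86 and 10.90 in experiment 4, 11.29 and 10.35 in WD44 experiment 1, and 11.29 and 10.37 in experiment 2. Every RNAi array was below its control array, with the widest gap in PGK12.1 experiment 3. The mean change over lines was -1.06 (SE 0.072; limma, adjusted p = 0.0159), or 2.08-fold. The linear signal changed by -56.2% ± 9.92 (SD, n = 2) in PGK12.1 (adjusted p = 0.0234) and by -47.5% ± 0.515 (SD, n = 2) in WD44, where it missed the threshold (limma, adjusted p = 0.141). The difference between lines, PGK12.1 minus WD44, was -0.26 with a 95% interval from -0.60 to 0.08 (adjusted p = 0.401), and it lay in experiment 3, since experiment 4 (-0.96) was next to WD44 (-0.94 and -0.92). In level, *Kdm6a* went from 3.05 to 1.57 times the array mean in PGK12.1 experiment 4 and from 2.14 to 1.13 and from 2.17 to 1.15 in WD44.

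Neither relative of *Kdm6a* passed a test. *Kdm6b*, the autosomal demethylase of the same family, changed by 0.01 and 0.04 in PGK12.1 and by -0.05 and -0.04 in WD44. *Uty* had a level of 0.631 to 0.709 in WD44 and changed there by -0.08 and -0.18, whereas in PGK12.1, which has no Y chromosome, its level was at most 0.0371. The Y-linked markers *Uty*, *Eif2s3y* and *Kdm5d* summed to a level of 1.94 to 2.06 on the WD44 control arrays and 0.106 to 0.135 on the PGK12.1 control arrays. The 8 ES cell markers summed to 51.0 to 53.3 in WD44 and 63.1 to 90.4 in PGK12.1.

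Array scales differed by experiment. The median log2 value was 6.47 and 6.48 on the arrays of PGK12.1 experiment 3, against 8.03 to 8.21 on the other 6. Levels and changes are therefore compared within an experiment first, and PGK12.1 experiment 4, which shared the scale of the WD44 arrays, is given beside each mean.

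The alike class held 5 protein-coding genes and 2 small nucleolar RNA (snoRNA) genes. Apart from *Kdm6a* itself, *Plac8* (a small cysteine-rich protein first found in placenta), *Sfrp1* (a secreted Wnt antagonist), *Apobec2* (of the cytidine deaminase family), *Snord35a* and *Snora74a* were lower in both lines, and *Gm5662*, a predicted gene, was higher. In the test over lines 26 genes (0.169%) passed, 7 higher and 19 lower, and 5 of the 6 alike genes that were lower were among them.

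*Plac8* read 5.30 (control) and 4.55 (*Kdm6a* RNAi) in PGK12.1 experiment 3, 7.14 and 6.60 in experiment 4, 9.07 and 8.60 in WD44 experiment 1, and 8.74 and 8.42 in experiment 2. It was lower in all 4 experiments although its level on the control arrays ran from 0.0695 in PGK12.1 experiment 3 to 0.46 in WD44. The mean change was -0.52 (SE 0.052; adjusted p = 0.0483). *Sfrp1*, a well expressed gene, read 9.75 and 9.12, 12.15 and 11.83, 11.44 and 11.10, and 11.45 and 11.06 in the same order. Its changes of -0.63, -0.32, -0.34 and -0.39 gave a mean of -0.42 (SE 0.057) that missed the threshold (adjusted p = 0.053).

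*Apobec2* read 8.10 and 7.80 in PGK12.1 experiment 3, 10.23 and 9.61 in experiment 4, 9.17 and 8.70 in WD44 experiment 1, and 9.03 and 8.59 in experiment 2. Its mean change was -0.46 (SE 0.0577; adjusted p = 0.0486), with the smallest change in PGK12.1 experiment 3, at the edge of the rule. *Gm5662* changed by 0.31 and 1.00 in PGK12.1 and by 0.34 and 0.40 in WD44, where its level was only 0.0149 to 0.0199 times the array mean. It did not pass the test (adjusted p = 0.0883).

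Genes outside the class that also passed the test over lines had changes of unequal size. *Sting1*, the adaptor of cytosolic DNA sensing, changed by -0.58 and -0.53 in PGK12.1 and by -0.27 and -0.43 in WD44 (mean -0.45, SE 0.0453; adjusted p = 0.0483). *Tppp3*, a tubulin-binding protein, changed by -0.70 and -0.57 against -0.14 and -0.44. *Cdh2* (N-cadherin) rose with changes of 0.52 and 0.48 in PGK12.1 and 0.20 and 0.35 in WD44 (mean 0.39, SE 0.0445; adjusted p = 0.0486). Among those called higher, *Mmrn2*, an extracellular matrix protein of endothelium, was the only one with a larger mean in WD44 than in PGK12.1. It changed by 0.41 and 0.27 in PGK12.1 and by 0.50 and 0.35 in WD44. Its WD44 control levels were only 0.0753 and 0.0899, against 0.413 and 0.628 in PGK12.1. Of the 26 genes, 21 also passed the test in PGK12.1 alone, and 4 (*Raet1d*, *Foxh1*, *Ckmt1* and *n-R5s136*) were PGK12.1 only by the rule of size. *Igkv4-55*, an immunoglobulin segment, was WD44 only, at low WD44 control levels of 0.136 and 0.148. Passing over lines therefore did not require a change of 0.3 in both. All 26 calls ended when the experiment was not used as a block, a fit that takes the differing array scales as spread. Leaving out any 1 experiment leaves 1 residual degree of freedom. Neither fit can judge the calls.

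Small nucleolar RNAs guide the chemical modification of ribosomal and spliceosomal RNA, box C/D members (*Snord*) directing ribose methylation and box H/ACA members (*Snora*) pseudouridylation. They were looked at as a group because a pair of them stood in the alike class, so the group was chosen after its values were seen and has no test. *Snord35a* read 8.65 (control) and 8.22 (*Kdm6a* RNAi) in PGK12.1 experiment 3, 11.76 and 11.40 in experiment 4, 12.41 and 11.98 in WD44 experiment 1, and 12.31 and 11.80 in experiment 2. Its mean change was -0.43 (SE 0.042; adjusted p = 0.0483). *Snora74a* changed by -0.37, -0.39, -0.33 and -0.40, and *Snord22* by -0.43, -0.29, -0.35 and -0.39. The difference between lines was -0.02 for *Snora74a*, with a 95% interval from -0.21 to 0.18. *Snord22*, named after its values were seen, also passed over lines (adjusted p = 0.0486).

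Of 51 snoRNA genes tested, 25 (49.0%) were lower in all 4 single RNAi experiments and none was higher in all, whereas 9.92% of all genes were lower in all 4 and 9.11% higher. Their medians were -0.15 and -0.23 in PGK12.1 and -0.15 and -0.11 in WD44, beside medians of all genes between -0.02 and 0.02. Box C/D and box H/ACA genes were alike in this, with 15 of 31 and 10 of 20 lower in all 4. The group was not lower after double RNAi: medians were 0.05 and -0.03, and 10 of the 51 genes were lower and 17 higher in both of those experiments, where 25.9% and 35.1% of all genes were. *Snord35a* changed there by 0.01 and -0.02.

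**Figure D2:**
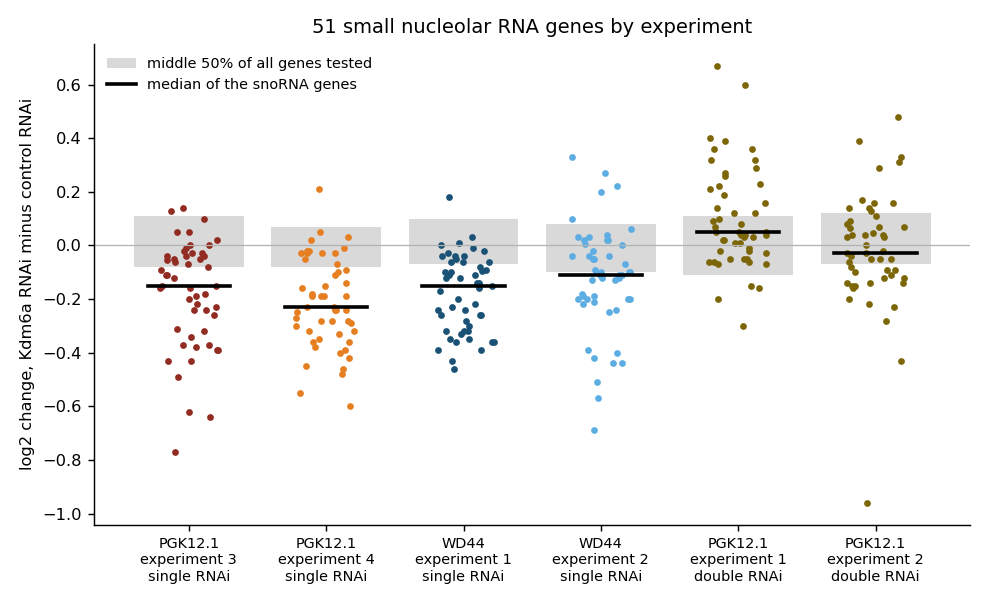
Log2 change of each of the 51 snoRNA genes (points) in the 4 single RNAi and the 2 double RNAi experiments, with their median (black bar) and the middle 50% of all genes tested (grey box). The median lies between -0.23 and -0.11 in the single RNAi experiments and at 0.05 and -0.03 after double RNAi.

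Most snoRNAs lie inside introns of other genes. For 28 of the 51, the gene around them was also tested, 24 host genes in all, and the hosts had medians of -0.04, -0.01, -0.03 and 0.01 in the 4 experiments where these 28 snoRNA genes had -0.16, -0.19, -0.20 and -0.10. Of the 24 hosts 4 were lower in all 4 experiments, and of these 28 snoRNA genes 12, beside 9.92% of all genes. No host and none of the 28 passed the test over lines. MicroRNA genes, which also give short RNAs, had 10 of 130 (7.69%) lower and 11 higher in all 4 experiments. Their median level was 0.23 against 0.95 for the snoRNA genes, so these groups were not matched for level. The size of RNA recovered on each array was not measured here, and its part in the snoRNA values was not tested.

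Promoters were set beside the classes as a description. That the members of a class moved together is set by the rule of size and shows no shared control. Shown are the 250 bases before the start site of 1 alike gene, of the PGK12.1 only genes *Raet1d* (higher) and *Cldn6* (lower), and of the WD44 only genes *Pagr1a* (higher) and *Fabp7* (lower), from RefSeq on GRCm38.p6 and 5′ to 3′ on the strand of the gene. Capitals mark CG dinucleotides, the sites of DNA methylation whose clusters form CpG islands. *Plac8* lies on the minus strand of chromosome 5 (chr5:100572206-100572455), *Raet1d* on the plus strand of chromosome 10 (chr10:22361644-22361893), *Cldn6* on the plus strand of chromosome 17 (chr17:23679115-23679364), *Pagr1a* on the minus strand of chromosome 7 (chr7:127017353-127017602) and *Fabp7* on the plus strand of chromosome 10 (chr10:57784673-57784922).
Plac8: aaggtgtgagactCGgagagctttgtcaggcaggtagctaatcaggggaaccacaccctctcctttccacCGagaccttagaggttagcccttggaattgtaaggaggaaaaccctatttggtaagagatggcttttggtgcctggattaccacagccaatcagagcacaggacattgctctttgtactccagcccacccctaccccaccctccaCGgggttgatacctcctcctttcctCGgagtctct
Raet1d: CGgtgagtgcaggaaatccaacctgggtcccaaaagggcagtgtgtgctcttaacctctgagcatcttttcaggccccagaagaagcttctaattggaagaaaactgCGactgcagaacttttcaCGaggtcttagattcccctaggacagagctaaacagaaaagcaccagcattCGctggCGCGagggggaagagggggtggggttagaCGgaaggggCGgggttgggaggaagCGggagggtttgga
Cldn6: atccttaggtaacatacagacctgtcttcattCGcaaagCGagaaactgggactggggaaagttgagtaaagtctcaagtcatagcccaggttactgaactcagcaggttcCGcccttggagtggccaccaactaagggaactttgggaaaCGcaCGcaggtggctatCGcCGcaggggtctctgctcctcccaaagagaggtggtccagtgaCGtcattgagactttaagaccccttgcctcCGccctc
Pagr1a: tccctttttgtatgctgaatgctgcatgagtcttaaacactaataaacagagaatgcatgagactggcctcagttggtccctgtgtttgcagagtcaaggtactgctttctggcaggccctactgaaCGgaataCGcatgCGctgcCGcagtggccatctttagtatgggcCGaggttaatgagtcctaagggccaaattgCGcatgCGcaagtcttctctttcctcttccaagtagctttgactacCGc
Fabp7: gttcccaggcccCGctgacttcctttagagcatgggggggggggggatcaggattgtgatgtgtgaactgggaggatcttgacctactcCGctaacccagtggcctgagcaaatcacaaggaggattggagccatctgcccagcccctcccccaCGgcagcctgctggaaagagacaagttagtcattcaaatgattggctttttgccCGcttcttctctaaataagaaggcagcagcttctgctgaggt

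These windows held 4 CG dinucleotides in *Plac8*, 9 in *Raet1d*, 9 in *Cldn6*, 8 in *Pagr1a* and 4 in *Fabp7*, all under the median of 14 over the 12088 tested genes with a window in the table. The PGK12.1 only genes had medians of 12 (26 higher genes with a window) and 11 (25 lower genes), and the WD44 only genes that were lower had 12 (12 genes). The WD44 only genes that were higher had a median of 3.5 (18 genes). Those genes also had a low level, with a median of 0.183 against 0.488 over all genes tested. The GC box GGGCGG, on either strand, was in 55.8% of all windows, 61.5% and 56% of those of PGK12.1 only genes higher and lower, and 22.2% and 41.7% of those of WD44 only genes higher and lower. The TATA box TATAAA was in 7.3% of all windows. Of the windows of PGK12.1 only genes it was in 4 of 26 (15.4%) higher and 3 of 25 (12%) lower ones. Of those of WD44 only genes it was in 3 of 18 (16.7%) higher and 1 of 12 (8.33%) lower ones.

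The PGK12.1 only class held 45 genes that were higher (0.293% of genes tested) and 35 that were lower (0.228%). On the WD44 control arrays 40 and 34 of these had a mean level of at least 0.1. Some genes that were still in WD44 thus lay below that level there. By the limma test in PGK12.1, 101 genes passed (0.658%), 43 higher (0.28%) and 58 lower (0.378%). Among those that passed, 24 were PGK12.1 only and higher and 21 PGK12.1 only and lower. All 101 calls ended when any 1 experiment was left out.

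Ligands of the natural killer receptor NKG2D, *Raet1d* and *H60b*, were among the genes that rose. *Raet1d* read 7.38 (control) and 8.06 (*Kdm6a* RNAi) in PGK12.1 experiment 3, 9.24 and 9.98 in experiment 4, 8.71 and 8.84 in WD44 experiment 1, and 8.80 and 8.89 in experiment 2. Both PGK12.1 changes were over 0.6 and both WD44 changes under 0.15. The change was 0.71 (SE 0.0577; limma, adjusted p = 0.0234) in PGK12.1 and 0.11 in WD44. The difference of 0.60 (95% interval 0.41 to 0.79) did not pass (limma, adjusted p = 0.187). *H60b* changed by 0.57 and 0.93 in PGK12.1 (adjusted p = 0.0239) and by 0.15 and 0.18 in WD44.

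*Foxh1*, the partner of SMAD proteins in Nodal signalling, read 8.52 and 7.65 in PGK12.1 experiment 3, 10.50 and 9.84 in experiment 4, 11.08 and 11.00 in WD44 experiment 1, and 11.18 and 11.04 in experiment 2. It fell in PGK12.1 with a change of -0.77 (SE 0.0691; adjusted p = 0.0234), and the difference between lines was -0.66 (95% interval -0.88 to -0.43; adjusted p = 0.187). *Lefty2*, a Nodal antagonist, changed by -0.64 and -0.52 in PGK12.1 (adjusted p = 0.0459) and by 0.02 and -0.30 in WD44, so that the WD44 experiments did not repeat each other. *Fgf15*, a fibroblast growth factor, changed by 0.67 and 0.52 against 0.11 and -0.13. *Lef1*, a transcription factor of Wnt signalling, rose in PGK12.1 (0.47 and 0.75; adjusted p = 0.0321) from a level of 0.256 and 0.368, and changed by -0.01 and -0.01 in WD44 at a level of 1.25 to 1.27. *Lpar4*, a receptor for lysophosphatidic acid, changed by 0.64 and 0.84 against 0.05 and -0.19.

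*Cldn6*, *Aqp3*, *Cd24a* and *Sparc* fell in PGK12.1 and were still in WD44. *Cldn6*, a claudin of tight junctions, read 9.72 and 9.07, 11.73 and 11.18 in PGK12.1 and 12.97 and 13.06, 13.01 and 13.09 in WD44. The changes were negative in both PGK12.1 experiments and positive in both WD44 experiments. With -0.60 (SE 0.0591; adjusted p = 0.0234) in PGK12.1 and 0.09 in WD44, the difference was -0.69 (95% interval -0.88 to -0.49; adjusted p = 0.187). *Aqp3*, a water and glycerol channel, changed by -0.53 and -0.64 against -0.13 and 0.01. *Cd24a*, a surface glycoprotein, changed by -0.77 and -0.46 against -0.12 and 0.06, and *Sparc*, a secreted matrix protein, by -0.40 and -0.51 against -0.04 and 0.14. These 4 genes had levels of 1.11 to 5.81 on the control array of PGK12.1 experiment 4.

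The largest fall after *Kdm6a* among the genes called in PGK12.1 was that of *Wfdc2*, a secreted protein with protease inhibitor domains. It read 8.97 and 8.10 in PGK12.1 experiment 3, 10.89 and 9.93 in experiment 4, 11.11 and 11.05 in WD44 experiment 1, and 10.68 and 10.90 in experiment 2. It was not in a class because WD44 experiment 2 was higher by 0.22. *Ebf1*, a transcription factor known from B cells, had the largest rise (0.96 and 0.77, against 0.26 and -0.17 in WD44). *Coch*, a secreted protein of the inner ear matrix, changed by 0.67 and 0.93 against -0.07 and 0.08. *Ckmt1*, mitochondrial creatine kinase, changed by -0.62 and -0.60 against -0.10 and -0.06.

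Other named members of the class were *Ano3*, an anoctamin membrane protein (0.91 and 0.61 in PGK12.1), *Dglucy*, a mitochondrial D-glutamate cyclase (0.55 and 0.62), and *Arhgef26*, a guanine nucleotide exchange factor (0.49 and 0.58). Their WD44 changes lay between -0.08 and 0.07. *n-R5s136*, a copy of the 5S ribosomal RNA gene whose probes may read other copies, changed by -0.70 and -0.53 against -0.08 and -0.12.

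**Figure D3:**
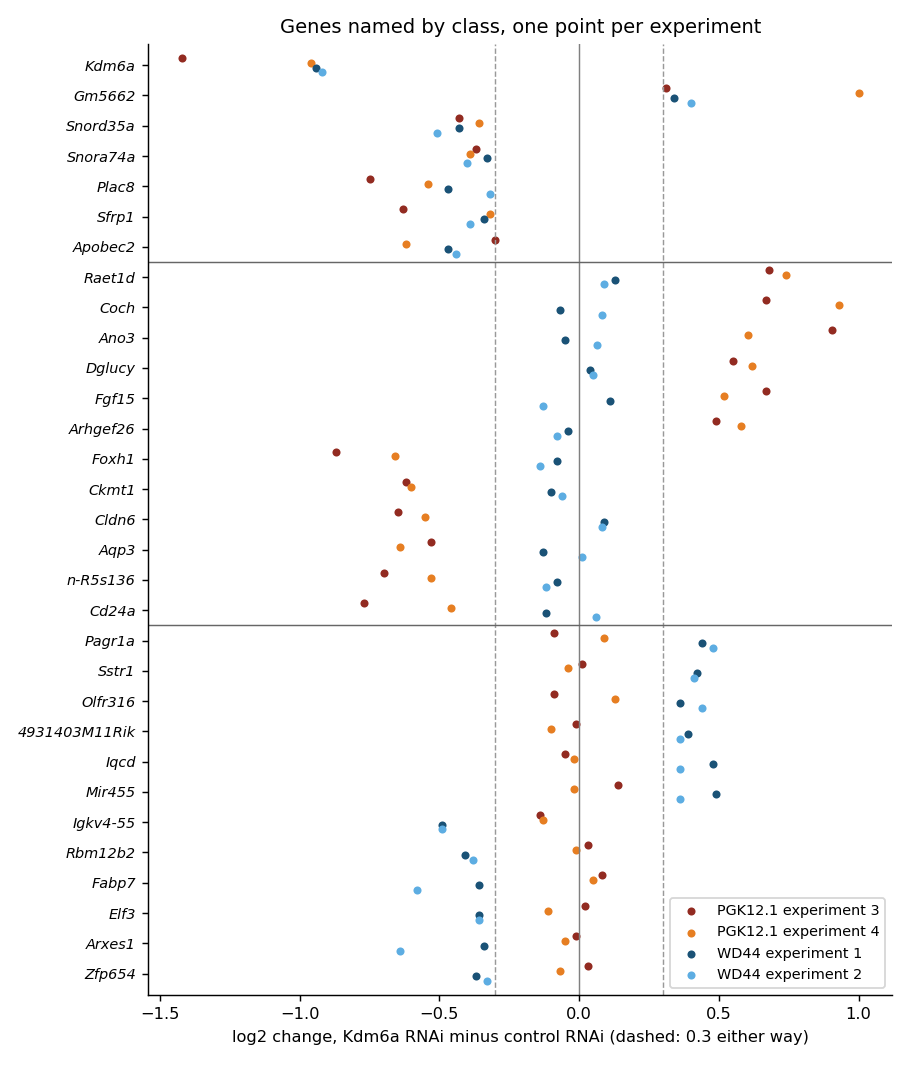
Log2 change of the genes named by class, 1 point per experiment (PGK12.1 in dark red and orange, WD44 in dark and light blue), with dashed lines at 0.3 either way and horizontal lines between the alike, PGK12.1 only and WD44 only classes. Points of the PGK12.1 only genes pass a dashed line in PGK12.1 and lie near 0 in WD44, and those of the WD44 only genes the reverse.

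WD44 gave no called gene. Although 104 genes moved by the rule of size, 0 of 15340 passed the limma test (smallest adjusted p = 0.141). At an unadjusted p under 0.05 there were 2942 genes, against 2264 in PGK12.1, where 101 passed. *Kdm6a* itself changed by -0.93 in WD44 and missed the threshold (limma, adjusted p = 0.141). The count of 0 thus does not show that WD44 responded less. With quantile normalization 1 gene passed, and 5 passed with the trend and robust options of limma. The methods' t-test, on the 2 experiments of a line, passed 0 genes in WD44 and 0 in PGK12.1 and cannot decide this. The WD44 only class held 27 genes that were higher (0.176%) and 16 that were lower (0.104%). This split depended on the scaling: it was 35 higher and 8 lower with array mean scaling, 24 and 6 with experiments scaled by their spread, 26 and 7 with quantile normalization, and 14 and 20, with most genes lower, when changes were centred by level. On the PGK12.1 control arrays all 27 higher and 14 of the 16 lower genes had a mean level of at least 0.1. Changes of the WD44 only genes are given as values.

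*Pagr1a*, a subunit of the KMT2C/D complexes that also hold KDM6A, had, among those higher, the largest value of the smaller of its WD44 changes. It read 9.87 (control) and 9.78 (*Kdm6a* RNAi) in PGK12.1 experiment 3, 11.32 and 11.41 in experiment 4, 11.03 and 11.47 in WD44 experiment 1, and 11.00 and 11.48 in experiment 2. The WD44 pairs were nearly the same and the PGK12.1 pairs had opposite signs. The change was 0.46 (SE 0.0656; adjusted p = 0.141) in WD44 and 0.00 in PGK12.1, a difference of -0.46 (95% interval -0.68 to -0.24; adjusted p = 0.187). It was also the only one of 9 measured members of the KMT2C/D-KDM6A list, *Kdm6a* left aside, to be in a class. *Kmt2c* and *Kmt2d*, the methyltransferases, changed by -0.30 and -0.17 and by -0.285 and -0.16 in WD44, and by 0.02 and 0.05 and by -0.23 and -0.04 in PGK12.1. Both were picked for their role, outside the rule for naming genes.

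The other WD44 only genes were mostly of low level. *Sstr1*, a somatostatin receptor, changed by 0.42 and 0.41 in WD44 at a control level of 0.0957 to 0.0987, and *Olfr316*, an olfactory receptor, by 0.36 and 0.44 at a control level of 0.0868 to 0.0946. *Mir455*, a microRNA gene, changed by 0.49 and 0.36, and *Iqcd* by 0.48 and 0.36. Among those lower, *Fabp7*, a fatty acid-binding protein of neural progenitors, changed by -0.36 and -0.58, *Elf3*, an ETS factor of epithelia, by -0.36 and -0.36, *Zfp654*, a zinc finger protein, by -0.37 and -0.33, and *Rbm12b2*, an RNA-binding protein, by -0.41 and -0.38. *Fabp7* had a control level in PGK12.1 of only 0.0247 in experiment 3 and 0.11 in experiment 4. *Elf3* read 10.05 and 9.69 and 9.82 and 9.46 in WD44, against 9.26 and 9.28 and 11.09 and 10.98 in PGK12.1.

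In WD44 the changes differed by the level of the gene. Genes were cut into 5 groups of 3068 by level. In the lowest group the medians of the WD44 changes were 0.11 and 0.07, and in the middle group -0.03 and -0.05, while in PGK12.1 the medians of all 5 groups lay between -0.01 and 0.02. Centring by level took the WD44 only genes from 43 to 34, and those higher from 27 to 14. Of the 10 markers of embryonic fibroblasts, 9 were higher in both WD44 experiments (31.3% of all genes tested were), with median changes of 0.08 and 0.155. Only 8 of the 10 reached the minimum level for testing, so this count and the share cover unlike sets. The summed level of the 10 was 6.56 to 6.77 on the control arrays and 7.21 to 7.56 on the *Kdm6a* RNAi arrays. *Acta2* was the largest of them on every WD44 array. In PGK12.1 the sums were 2.52 to 2.73 and 2.46 to 2.81, with 2 markers higher and 5 lower in both experiments. The part of the level trend and of the fibroblast markers in the WD44 values was not tested.

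No gene moved by 0.3 in opposite directions in the 2 lines, and 4 did so at 0.2. The sign of smaller changes was nearly as often opposite as shared: 2920 genes (19%) had the same sign in all 4 experiments, and 2535 (16.5%) were uniform within each line and opposite between lines, 8.99% higher in PGK12.1 and lower in WD44 and 7.54% the reverse. *Map7d3*, an X-linked microtubule-binding protein, had opposite signs in the lines and passed the test in PGK12.1 (adjusted p = 0.0459). It read 7.81 and 8.25 in PGK12.1 experiment 3, 10.08 and 10.50 in experiment 4, 10.18 and 9.99 in WD44 experiment 1, and 10.33 and 9.97 in experiment 2. The PGK12.1 changes were 0.44 and 0.42 and the WD44 changes -0.19 and -0.36, a difference of 0.705 (SE 0.0911; adjusted p = 0.187). *Zfp442*, a zinc finger gene of low level, changed by 0.19 and 0.24 against -0.44 and -0.41.

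The direct test of the lines against each other called 0 of 15340 genes (smallest adjusted p = 0.187) with limma, while 2558 had an unadjusted p under 0.05. With the trend and robust options of limma 39 genes passed, 19 with the larger value in PGK12.1 and 20 with the smaller. *Cldn6* and *Wfdc2* had the smallest adjusted p there (0.00345 each, over a range of alternatives that reached 1.0). A gene of the PGK12.1 only class is therefore one whose sizes differed by the rule, not one shown to respond in that line alone.

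Genes that moved in PGK12.1 were looked up in the experiments that had not chosen them. Of the 104 genes that moved down in PGK12.1, *Kdm6a* left aside, 63 (60.6%) were lower in both WD44 experiments, where 33.1% of all genes were, and 8 were higher in both. Their median WD44 change was -0.11 against -0.01 for all genes. The 93 genes that moved up in PGK12.1 had 31 (33.3%) higher in both WD44 experiments, near the 31.3% of all genes, and 23 lower in both.

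The same genes were looked up in PGK12.1 after double RNAi. Of those moved up, 82 of 93 (88.2%) were higher in both double RNAi experiments, beside 35.1% of all genes, and 45 of them by at least 0.3 in both (1.52% of all genes). Of those moved down, 91 of 104 (87.5%) were lower in both (25.9% of all genes), and 45 by at least 0.3 (0.893% of all genes). For the PGK12.1 only genes these counts were 41 of 45 higher and 33 of 35 lower. *Raet1d* changed by 0.66 and 0.45 there, *Foxh1* by -0.52 and -0.85 and *Cldn6* by -0.53 and -0.61.

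Genes that moved in WD44 were looked up in PGK12.1 in the same manner. Of the 49 that moved up, 12 (24.5%) were higher in both PGK12.1 single RNAi experiments (29.6% of all genes). In both double RNAi experiments 8 (16.3%) were higher, beside 35.1% of all genes. Of the 54 that moved down, 26 (48.1%) were lower in both PGK12.1 single RNAi experiments (26.1% of all genes). After double RNAi 19 (35.2%) were lower in both, beside 25.9% of all genes. Among the WD44 only genes, 1 of 27 higher and 2 of 16 lower genes kept their direction in both double RNAi experiments. Of the 27, 11 were lower in both, where 25.9% of all genes were. Of the 16, 7 were higher in both, where 35.1% of all genes were. Only 2 WD44 experiments were analysed here, and both were used by the rule.

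**Figure D4:**
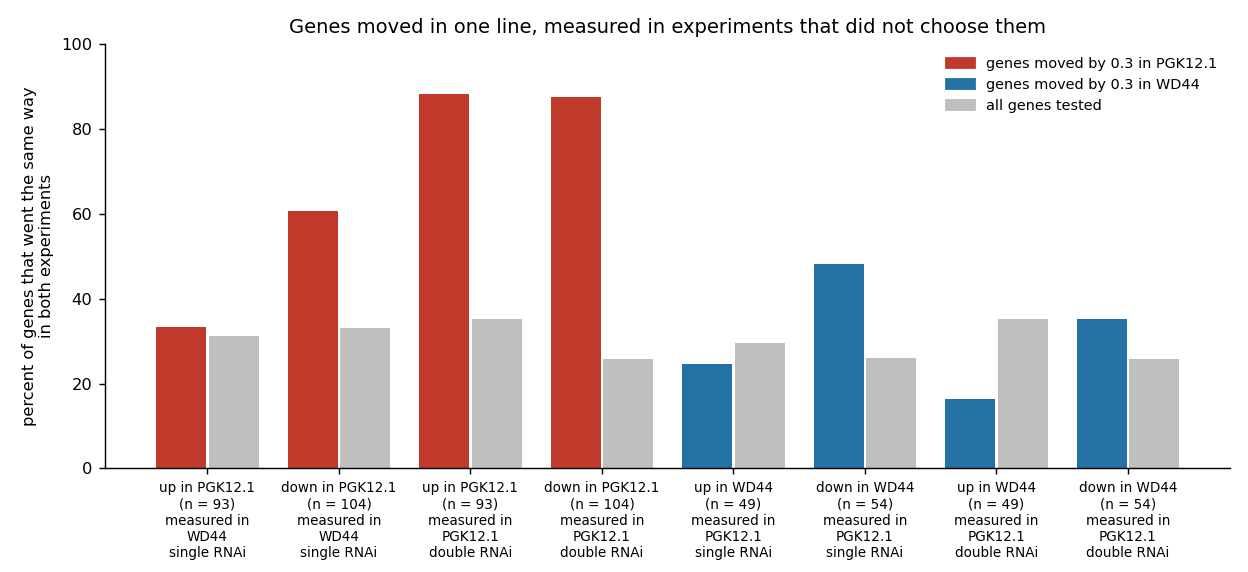
Percent of genes that went the same way in both experiments of a set that had not chosen them, for genes moved by 0.3 in PGK12.1 (red) or WD44 (blue), *Kdm6a* left out, beside all genes tested (grey). Genes moved in PGK12.1 reach 88.2% and 87.5% after double RNAi in that line, and 33.3% (up) and 60.6% (down) in WD44.

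Across genes, the changes of the 2 experiments of a line were more alike than those of different lines. Over the 15340 genes Pearson's r was 0.35 (Spearman's coefficient 0.29) within PGK12.1 and 0.49 (0.50) within WD44. Between lines r was 0.03 and 0.04 for PGK12.1 experiment 3 and 0.11 and 0.09 for experiment 4. Genes are not independent replicates, and the points of a pair share the scale of their arrays. In the group of 3068 genes with the highest level, r was 0.53 within PGK12.1, 0.43 within WD44, and 0.26 and 0.20 between PGK12.1 experiment 4 and WD44. In the lowest group it was 0.16, 0.36, 0.03 and 0.00.

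The genes of the 2-cell embryo, which a small share of ES cells switches on at any time, had the highest median of the gene lists in PGK12.1. Of 20 entries 10 were measured and 8 tested, and the *Zscan4* genes that define this state were not analysed here. All 8 were higher in both PGK12.1 experiments (29.6% of all genes) and 4 in both WD44 experiments (31.3% of all genes). Their median change was 0.41 in PGK12.1 and 0.06 in WD44, beside 0.01 and -0.01 over all genes. *Arg2*, the mitochondrial arginase, was the one called in PGK12.1: it read 6.52 and 7.17, and 7.99 and 8.49, with 7.31 and 7.35, and 7.40 and 7.13 in WD44 (change 0.58, SE 0.0848; adjusted p = 0.0459). *Tcstv3* and *Usp17lb* were PGK12.1 only, with changes of 0.33 and 0.47 and of 0.31 and 0.63. These genes lie in families of near-identical copies that probes may share, and in WD44 the level of *Tcstv3* was at most 0.05 times the array mean.

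None of the 5 pluripotency genes taken from the study passed a test. *Nanog* changed by 0.03 and -0.01 in PGK12.1 and by -0.07 and -0.09 in WD44, *Pou5f1* by -0.06 and 0.01 and by 0.06 and 0.07, *Sox2* by 0.12 and 0.07 and by -0.04 and -0.04, and *Stat3* by 0.01 and 0.05 and by 0.20 and -0.03. *Cd9*, a tetraspanin of the ES cell surface, changed by 0.04 and -0.11 in PGK12.1 and by -0.09 and 0.34 in WD44, whose experiments thus had opposite signs. None of the 20 naive pluripotency genes passed a test. Of them 15 were lower in both WD44 experiments (33.1% of all genes) and 8 in both PGK12.1 experiments (26.1% of all genes), with medians of -0.08 and -0.02. *Dppa3*, which protects DNA methylation in the early embryo, was lower in all 4 experiments (-0.52, -0.30, -0.23 and -0.43), and so was *Tcl1*, a co-activator of AKT (-0.14, -0.23, -0.38 and -0.31), the latter named after its values were seen. Of the 12 primed and formative genes, *Lef1* was called in PGK12.1.

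None of the *Rhox* homeobox genes of the X chromosome passed a main test on the single RNAi arrays. At a minimum level of 0.25 *Rhox9* was called lower in PGK12.1 (limma, adjusted p = 0.037). *Rhox9* read 10.08 and 9.45 in PGK12.1 experiment 3, 12.29 and 11.95 in experiment 4, 11.34 and 11.46 in WD44 experiment 1, and 11.52 and 11.36 in experiment 2. *Rhox6* read 9.73 and 9.02, 11.26 and 10.86, 10.44 and 10.71, and 10.61 and 10.40. Both genes lay below their control array in both PGK12.1 experiments, and above it in one WD44 experiment and below it in the other. The difference between lines was -0.47 (95% interval -0.77 to -0.16; adjusted p = 0.21) for *Rhox9* and -0.59 (-0.98 to -0.19; adjusted p = 0.212) for *Rhox6*. *Rhox5* changed by -0.30 and -0.25 against -0.04 and 0.07. After double RNAi in PGK12.1, *Rhox9* changed by -0.51 and -0.46, *Rhox5* by -0.33 and -0.34 and *Rhox6* by -0.15 and -0.16. In the limma fit on all 12 arrays the adjusted p of the double RNAi change was 0.0304, 0.0278 and 0.468 in that order. Over the 15 *Rhox* genes tested the medians were -0.03 and -0.01.

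Among signalling lists, Nodal and Lefty genes had *Foxh1* and *Lefty2* called lower in PGK12.1 of 12 tested, where 0.378% of all genes were called lower in that line, with list medians of -0.05 in PGK12.1 and -0.07 in WD44. *Dusp9*, an X-linked phosphatase of ERK, was the 1 of 13 FGF and MAPK feedback genes called (-0.49 and -0.39 in PGK12.1, -0.17 and -0.17 in WD44; adjusted p = 0.0381). None of 12 immediate early genes was called. Of the lineage lists, *Plet1* (trophoblast; -0.64 and -0.75, against -0.28 and -0.11) was called in PGK12.1 and over lines, 1 of 13, and *Sparc* was the 1 of 17 primitive endoderm genes called. None of the 11 neuroectoderm, the 11 mesoderm or the 17 germ cell genes passed, and 12 of the germ cell genes were lower and 2 higher in both WD44 experiments, where 33.1% and 31.3% of all genes were.

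With 0.658% of all genes called in PGK12.1 and 0.169% over lines, lists of this size would hold few called genes at the share of all genes. The chromatin lists gave no called member: 0 of 13 PRC2 and H3K27 demethylase genes, 0 of 8 DNA methylation and TET genes, and 0 of 9 genes of the KMT2C/D-KDM6A complex. Stress lists likewise gave none, with 15 p53 targets, 20 genes of the integrated stress response, 12 heat shock genes, 10 interferon response genes, 16 genes of cholesterol synthesis and 18 of glycolysis and hypoxia tested. Of the p53 targets 10 were higher and 1 lower in both PGK12.1 experiments, and 5 were higher and 5 lower in both WD44 experiments (medians 0.11 and 0.00). Of the glycolysis and hypoxia genes 6 were higher and 1 lower in both PGK12.1 experiments, and none was higher and 11 were lower in both WD44 experiments (0.07 and -0.09). Their PGK12.1 median was 0.125 in experiment 3 and -0.02 in experiment 4. Of all genes 29.6% were higher and 26.1% lower in both PGK12.1 experiments, and 31.3% higher and 33.1% lower in both WD44 experiments.

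On the sex chromosomes, 4 X-linked genes were called higher and 4 lower in PGK12.1 among 501 tested besides *Kdm6a*, where 0.28% and 0.378% of all genes were, with medians of 0.02 in PGK12.1 and -0.03 in WD44. Of the 130 alike, PGK12.1 only and WD44 only genes, 6 were X-linked, *Kdm6a* itself included, where 3.27% of all genes tested were. None of 11 genes that escape X inactivation and none of 5 Y-linked genes passed. None of the 15 fibroblast genes passed either, and 10 of them were higher in both WD44 experiments (31.3% of all genes) and 6 in both PGK12.1 experiments (29.6%).

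**Figure D5:**
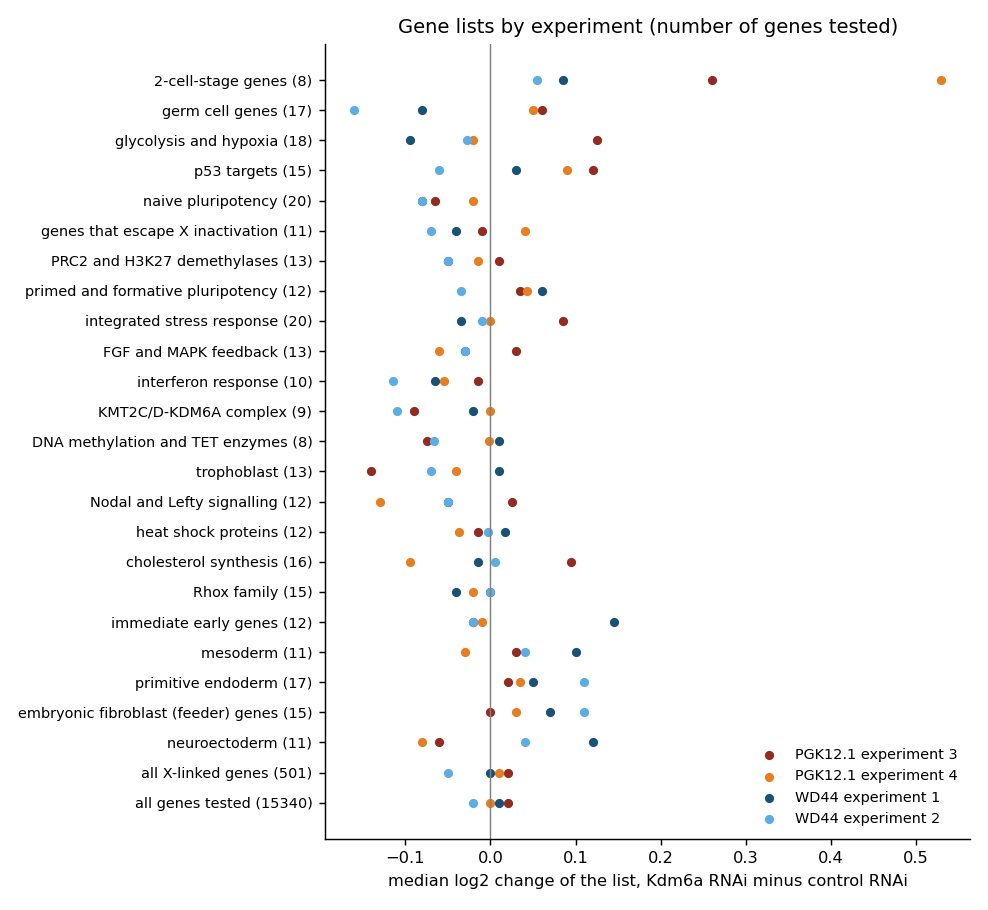
Median log2 change of each gene list with at least 8 genes tested, 1 point per experiment, ordered by the median difference between lines. The 2-cell-stage genes stand apart at 0.26 and 0.53 in PGK12.1, and most other medians lie within 0.15 of 0.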

How the data were processed

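Total RNA of 12 cultures was hybridised to Affymetrix Mouse Gene 1.0 ST arrays, 1 per culture. The authors deposited log2 values per probe set, made with RMA in Affymetrix Expression Console (the submitters' processing notes name both). Their versions are not stated, nor is the set of arrays that each RMA run held. Array medians differed between experiments, so changes were taken within an experiment. The number of arrays limits the precision.

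Of 35556 probe sets, 21789 had 1 gene symbol in the platform annotation, 1621 had several and 12146 had none and were not used. Probe sets of a gene were averaged (999 genes had several). Genes with a mean linear value of at least 0.1 of the array mean over the 12 arrays were tested. limma 3.58.1 in R 4.3.3 was fitted on the 8 single RNAi arrays with the experiment as a block, because the labels number control and *Kdm6a* arrays by experiment, and with 1 effect per line. Contrasts were the mean of the lines, each line, and their difference, with Benjamini-Hochberg adjustment at 0.05. Tables were handled in Python 3.11.15 and the fit was tested on simulated data. The limma p-values rest on the spread between these experiments, moderated towards that of all genes tested. Each gene had 2 residual degrees of freedom, and the moderation added 5.33 prior ones. Promoter windows came from RefSeq tables on GRCm38.p6.

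The arrays, classes and gene lists were chosen with earlier results of these data known. Genes were named by a rule: *Kdm6a*, *Uty*, *Kdm6b*, *Actb*, *Rhox5*, *Rhox6*, *Rhox9* and 5 pluripotency genes, up to 6 genes per class and direction by their smallest change, up to 6 called genes per contrast and direction (5 by unadjusted p where fewer than 5 were called), and up to 3 members per list. Alternatives were other scalings, level minimums, class limits, probe set handling, moderation, the methods' t-test, no block, and leaving out each experiment.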

Additional observations from a re-analysis of the deposited data

Results flagged for a closer look

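Some genes with values named by rule had both PGK12.1 experiments on one side of 0 and both WD44 experiments on the other. None of these differences between lines passed the limma test after adjustment over all 15340 genes, and 16.5% of all genes had this pattern. The differences are given on the log2 scale, PGK12.1 minus WD44. Of the PGK12.1 only genes, the difference was 0.595 for *Arhgef26*, -0.685 for *Cldn6* and 0.62 for *Lef1*. Of the WD44 only genes it was -0.43 for *4931403M11Rik*, a gene without an assigned function, -0.455 for *Iqcd* and 0.535 for *Fabp7*. *Zfp442* and *Map7d3*, which were in no class, had differences of 0.64 and 0.705. *Car5b*, an X-linked mitochondrial carbonic anhydrase, had 0.225. Differences were smallest for *Kdm6b* (0.07), *Actb*, the cytoplasmic actin used as a loading control (-0.06), and *Sox2* (0.135).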

How the results depend on the processing

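The counts of called genes depended on the settings. Over lines, 26 genes were called, against 56 with experiments scaled by their spread, 58 with all 12 arrays in the fit, 85 with array mean scaling, 73 with changes centred by level (chosen after seeing the data), 1 with every probe set tested, 177 at a minimum level of 0.25, 0 with no minimum, 0 with the methods' t-test and 371 with trend and robust moderation. In PGK12.1, 101 became 160 with array mean scaling, 53 with every probe set, 247 at a minimum of 0.25, 0 with no minimum, 0 with the t-test and 453 with trend and robust moderation. Leaving out each experiment in turn gave 0 to 0 calls in both, with 1 residual degree of freedom. In WD44, 0 became 1 with quantile normalization and 5 with trend and robust moderation, and the difference between lines went from 0 to 39 with the latter. Without the replicate block, which removes the pairing of arrays by experiment, 0 genes were called over lines and 0 in PGK12.1. In that fit 0 genes had even an unadjusted p under 0.05 in these contrasts. It takes the gap in array scale between experiments as spread (medians of 6.47 and 8.21 on the PGK12.1 control arrays). It therefore cannot judge the calls. The t-test within a line rests on too few experiments to judge the PGK12.1 calls either.

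The alike class of 7 became 35 with moved set at 0.2, 1 at 0.5, 24 with the top or bottom 5% of each experiment and 11 with changes centred by level. The 80 PGK12.1 only genes became 324 at 0.2, 10 at 0.5 and 52 with still set at 0.1. The 43 WD44 only genes became 404, 0 and 25 in the same order, 91 by the 5% rule, 17 at a minimum level of 0.25 and 73 with none. The opposite class became 4 at 0.2. The percent of genes with the same sign in all experiments was 19.7 at a minimum of 0.25, 17.7 with none, 21.4 with quantile normalization and 21.6 with array mean scaling. The percent opposite between lines was 15.6 with no minimum, 17.8 with array mean scaling and 14.9 with changes centred by level. The correlation within PGK12.1 was 0.450 at a minimum of 0.25 and 0.249 with none, and within WD44 0.401 with none, 0.430 with quantile normalization and 0.422 with changes centred by level.

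Of the alternatives for single genes, 1430 kept direction and side of the threshold, 253 lost the call, 44 gained one and 6 turned direction. The WD44 change of *Rhox9* was 0.015 with changes centred by level. Leaving out 1 experiment, it ranged from -0.16 to 0.12, that of *Rhox5* from -0.04 to 0.07 and that of *Rhox6* from -0.21 to 0.27. The change over lines ranged from -0.0425 to 0.2875 for *Aldoc*, a glycolytic enzyme, and from -0.01 to 0.16 for *Cryab*, a small heat shock protein, both lowest without PGK12.1 experiment 3. With trend and robust moderation *Rhox5*, *Rhox6* and *Rhox9* were called lower in PGK12.1, and *Rhox9* also over lines (limma, adjusted p = 0.0361), and at a minimum level of 0.25 *Rhox9* was called in PGK12.1. The causes were not tested.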
